A study of Mus musculus with 6 samples.

Results

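The genes of 3 families of molecular motors, the unconventional myosins, the kinesins and the cytoplasmic dyneins with their dynactin partner, were followed in tissue enriched for retinal pigment epithelium (RPE). Members were all entries of the deposited gene table whose symbol begins with Myo, Kif or Klc and a number, or with Dync, Dynl or Dctn. The rule took 61 of 14008 named entries. They comprised 15 myosins, 28 kinesins and kinesin light chains, 17 dynein and dynactin genes, and Kif1bp, which matched by its symbol but encodes a kinesin-binding protein and no motor. Of these, 54 had a mean of 1 CPM or more (CPM: read counts scaled to the library total) and entered the test, and 7 did not.

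RPE cells form the pigmented layer behind the photoreceptors. Myosins walk along actin filaments, whereas kinesins and dynein walk along microtubules, as a rule in opposite directions. In the RPE such motors position melanosomes, the pigment granules, and carry phagosomes holding shed photoreceptor outer segments towards lysosomes. Myo7a is the member best known in this tissue, since its loss misplaces melanosomes and delays phagosome transport in mice and causes Usher syndrome in people.

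The samples were 3 libraries at CT1 and 3 at CT23, circadian times that lie 2 h apart around subjective dawn, all from male C57BL/6J mice (an inbred strain) aged 8 to 10 weeks. Pools of 2 RPE samples went into each library. The kit sequences transcript 3′ ends, so read counts do not grow with transcript length and CPM was compared between genes as it stands. The labels do not say whether replicates came from separate dissections, so p-values measure the spread between these libraries. RPE was not pure: all 17 RPE markers were present, with summed levels of 3451 to 4060 CPM at CT1 and 2578 to 3146 CPM at CT23, but so were all 19 rod markers, at 893 to 973 CPM at CT1 and 1319 to 1595 CPM at CT23. Crystallin genes, which encode lens proteins, took 1.84% to 12.8% of the listed reads at CT1 and 16.4% to 61.2% at CT23, with CT23 replicates 1 and 2 at 61.2% and 58.7%. Library totals were 12612330 to 13651486 reads, so that 3 reads, about the 95% upper limit for a count of 0, equal 0.220 to 0.238 CPM. The listed genes held 12.7% to 15.0% of these totals at CT1 and 14.3% to 32.3% at CT23. What the rest of the totals counts is not stated. Crystallin genes thus took a smaller share of the totals than of the listed reads. In bulk tissue, fewer cells of a type and less RNA per cell cannot be told apart.

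The comparison of CT1 with CT23 asked how RPE transcripts differ around subjective dawn, when outer segments are shed. Motor genes as a whole overlapped between the times, with summed levels of 598, 614 and 629 CPM in CT1 replicates 1, 2 and 3 and 605, 632 and 610 CPM in CT23 replicates 1, 2 and 3. No member passed the test across all genes (limma on log2(CPM + 1) with Benjamini-Hochberg adjustment at 0.05), nor did any of the 11342 genes tested (0% called). On the log2(CPM + 1) scale 29 members lay higher at CT1 and 25 lay lower. Their median log2 fold was 0.018, against -0.014 over all genes tested. The median size of the fold, sign set aside, was 0.17 for members and 0.18 for all genes. At an adjusted p under 0.1 the test gave 2 members, both lower at CT1 and Kif21b among them, and 497 genes in all (4.38%, with 3.06% lower at CT1). At an unadjusted p under 0.05 it gave 11 members, 5 higher and 6 lower, which is 20.4% of those tested and close to the 21.8% found over all genes (9.39% higher and 12.4% lower). The libraries of the times did not overlap for 15 members (27.8%), 7 higher and 8 lower, and for 27.6% of all genes. Without CT1 replicate 1 the unadjusted count was 7 members, beside 1793 of all 11342 genes. With any library left out no member kept an adjusted p under 0.1, while over all genes 0 to 11 did. When crystallin reads were taken out of the library totals, the median log2 fold of all genes moved to -0.17 and that of the members to -0.17, with 12 members higher and 42 lower at CT1. The test then gave 2 members, Kif21b among them, and 3.17% of all genes (3.11% lower at CT1), and on genes averaging 5 CPM or more it gave 1 member and 2.07% of genes. With crystallin reads out of the totals the sign turned for 17 members, which the closing section names. With TMM factors, another scaling of the libraries, 30 members lay higher and 24 lower at CT1. The median log2 fold was then 0.035 for members and 0.00035 for all genes.

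**Figure D1:**
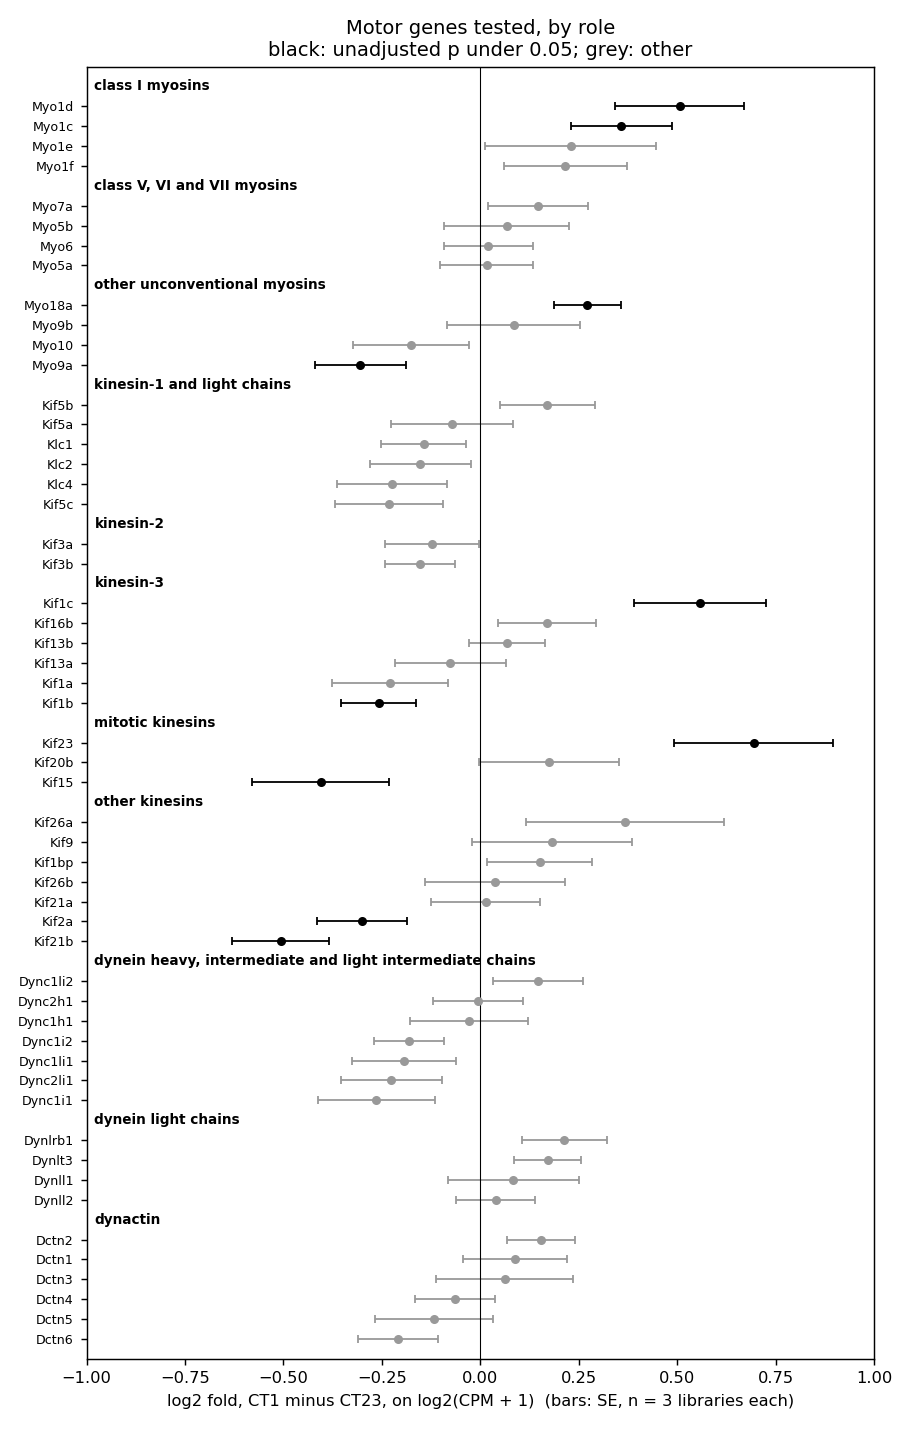
Log2 fold of CT1 minus CT23 on log2(CPM + 1) for 53 motor genes tested, grouped by role, with standard errors (n = 3 libraries each). Black points mark the 10 of these genes at an unadjusted p under 0.05, which run from -0.51 for Kif21b to 0.69 for Kif23. In this fit no dynein or dynactin gene is among them.

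The start regions of 2 pairs of genes whose folds had opposite signs, none of which passed the test, and of Myo7a are shown first because much of the text below describes these genes. Windows run from 250 bases before to 50 bases after an annotated start, 5′ to 3′ on the gene's strand, and are RefSeq sequences of build GRCm38.p6. Of the 61 members 47 had a window. Kif1c (chr11:70700298-70700597, plus strand) and Kif1b (chr4:149307649-149307948, minus strand) are close relatives, and capitals mark GGGCGG on either strand, the letters of a GC box.
Kif1c: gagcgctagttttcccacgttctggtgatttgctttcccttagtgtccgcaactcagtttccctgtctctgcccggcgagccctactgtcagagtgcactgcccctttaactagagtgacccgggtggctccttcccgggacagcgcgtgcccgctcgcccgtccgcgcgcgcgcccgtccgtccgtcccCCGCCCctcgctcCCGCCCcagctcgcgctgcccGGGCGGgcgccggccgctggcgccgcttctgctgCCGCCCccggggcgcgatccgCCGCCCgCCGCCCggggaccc
Kif1b: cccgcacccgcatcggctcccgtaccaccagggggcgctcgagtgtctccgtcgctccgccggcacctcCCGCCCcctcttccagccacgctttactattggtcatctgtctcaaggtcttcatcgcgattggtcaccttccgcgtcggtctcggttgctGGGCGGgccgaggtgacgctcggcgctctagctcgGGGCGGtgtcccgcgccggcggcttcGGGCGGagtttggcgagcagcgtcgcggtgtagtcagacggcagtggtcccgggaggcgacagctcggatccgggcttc
Kif1c held 6 matches and Kif1b held 4. The motif was in 71.2% of the 59 windows of members, in 46.2% of windows of all protein-coding genes and in 35.7% of all windows. Kif23 (chr9:61946750-61947049, minus strand) and Kif15 (chr9:122950831-122951130, plus strand) encode motors of dividing cells, and capitals mark TTTGAA on either strand, the letters of the cell cycle homology region found in many promoters of dividing cells.
Kif23: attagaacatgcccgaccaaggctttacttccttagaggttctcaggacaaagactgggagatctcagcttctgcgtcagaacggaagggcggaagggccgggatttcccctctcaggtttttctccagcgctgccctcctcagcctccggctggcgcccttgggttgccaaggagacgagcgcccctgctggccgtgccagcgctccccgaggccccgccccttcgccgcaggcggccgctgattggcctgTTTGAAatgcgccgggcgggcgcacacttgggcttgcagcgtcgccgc
Kif15: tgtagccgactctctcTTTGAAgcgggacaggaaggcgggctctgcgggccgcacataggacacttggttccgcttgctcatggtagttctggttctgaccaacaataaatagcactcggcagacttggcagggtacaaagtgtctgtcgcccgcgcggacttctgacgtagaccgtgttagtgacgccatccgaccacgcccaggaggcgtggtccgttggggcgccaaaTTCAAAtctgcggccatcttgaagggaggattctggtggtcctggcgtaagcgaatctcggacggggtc
Kif23 held 1 match, beside its start, and Kif15 held 2, while 17.9% of all windows and 16.9% of those of members held at least 1. For Myo7a a second annotated start within the gene (chr7:98109199-98109498, minus strand) is shown, with capitals on CATGTG on either strand, the letters bound by the pigment cell factor MITF.
Myo7a: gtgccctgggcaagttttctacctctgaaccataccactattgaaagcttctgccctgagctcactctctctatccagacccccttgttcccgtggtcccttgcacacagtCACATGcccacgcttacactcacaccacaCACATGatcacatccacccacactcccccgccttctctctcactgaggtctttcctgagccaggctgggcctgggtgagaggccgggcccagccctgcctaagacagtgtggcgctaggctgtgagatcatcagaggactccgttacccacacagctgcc
It held 2 matches, and the window of the upstream start (chr7:98119444-98119743) held none; 14.2% of all windows and 6.78% of those of members held this motif. The canonical clock E-box, CACGTG, which reads the same on both strands, was in 2 of the 59 windows of members (3.39%), in 7.15% of all windows, and in none of the 13 windows of the 8 members with a window among the 11 at an unadjusted p under 0.05. These matches describe the letters only.

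Myo7a lies on the minus strand of chromosome 7, from 98051060 to 98119524. Its level was 7.10, 6.98 and 8.29 CPM in CT1 replicates 1, 2 and 3, against 7.84, 5.99 and 6.16 CPM in CT23 replicates 1, 2 and 3. The times overlapped, because CT23 replicate 1 lay above CT1 replicates 1 and 2. Its means were 7.46 ± 0.727 CPM at CT1 and 6.66 ± 1.02 CPM at CT23 (SD, n = 3 each), with a log2 fold of 0.15 (SE 0.127) that did not pass limma's test (adjusted p = 0.527). These levels rest on 78 to 112 reads per library. With crystallin reads out of the totals the log2 fold was -0.02. Myo7a ranked 27 of 61 by mean CPM, between Myo1c and Kif13b, whose levels of 7.06 and 6.80 CPM lay within its spread. Over the 6 libraries the genes outside the members most like Myo7a were Mlana, Cyth3 and Serpina3n, out of 4688 genes averaging 5 CPM or more, with Pearson's r of log2(CPM + 1) of 0.998, 0.997 and 0.982. These libraries share their totals and tissue makeup, and r is given as a description of 6 points. Mlana, a melanosome protein gene of pigment cells, was at 77.9, 77.2 and 97.4 CPM in CT1 replicates 1, 2 and 3 and 88.5, 60.8 and 62.8 CPM in CT23 replicates 1, 2 and 3. Both genes were thus highest in CT1 replicate 3 and CT23 replicate 1.

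**Figure D2:**
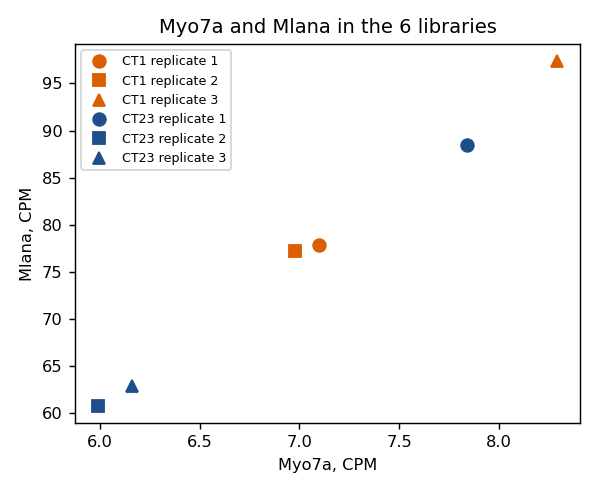
Levels of Myo7a (x axis, CPM) and Mlana (y axis, CPM) in each of the 6 libraries, with CT1 in orange and CT23 in blue and a symbol for each replicate. CT1 replicate 3 and CT23 replicate 1 hold the highest values of both genes, and the times overlap.

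The other myosins that carry cargo through the cytoplasm stood at like levels at both times. Myo5a, which moves melanosomes in melanocytes, averaged 18.3 ± 2.03 CPM at CT1 and 18.1 ± 1.96 CPM at CT23. Myo6, which walks towards the opposite end of actin filaments from other myosins, averaged 25.1 ± 1.94 CPM at CT1 and 24.8 ± 2.81 CPM at CT23. Myo5b, a motor of recycling endosomes, averaged 4.74 ± 0.503 and 4.53 ± 1.11 CPM at CT1 and CT23 (SD, n = 3 each for these genes). Their log2 folds were 0.02, 0.02 and 0.07 with limma adjusted p of 0.951, 0.935 and 0.837, and all turned negative with crystallin reads out of the totals. Myo5c had 5 to 9 reads per library and was not tested.

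Class I myosins are short motors that tie membranes to actin. Myo1c, Myo1d, Myo1e and Myo1f were higher at CT1, also with crystallin reads out of the totals, but did not pass. Myo1d (chromosome 11, 80482126 to 80780025, minus strand), whose fly counterpart sets left-right handedness, was at 12.7, 12.5 and 17.4 CPM in CT1 replicates 1, 2 and 3 and 7.76, 11.1 and 10.3 CPM in CT23 replicates 1, 2 and 3. Myo1c, a motor for delivery of vesicles to the plasma membrane, was at 6.87, 8.64 and 8.66 CPM at CT1 and 6.30, 6.61 and 5.28 CPM at CT23. In both genes all CT1 libraries lay above all CT23 libraries in the deposited CPM, in Myo1c by a small margin. Log2 folds were 0.51 for Myo1d (SE 0.164, limma adjusted p = 0.142) and 0.36 for Myo1c (SE 0.128, adjusted p = 0.169). With crystallin reads out of the totals they were 0.33 for Myo1d and 0.19 for Myo1c. Myo1f, a motor of white blood cells, had a log2 fold of 0.22 with overlapping times, and macrophage markers had 7 of 8 members higher, with sums of 61.1 to 86.9 CPM at CT1 and 47.2 to 59.8 CPM at CT23, none at 0 throughout. Their part in the Myo1f value was not tested.

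Of the remaining myosins, Myo18a and Myo9a were set apart between the times in opposite directions in the deposited CPM. Myo18a (chromosome 11, 77763246 to 77865980, plus strand), which links the Golgi membrane to actin, was at 19.6, 20.5 and 21.1 CPM in CT1 replicates 1, 2 and 3 and 16.3, 17.4 and 16.6 CPM in CT23 replicates 1, 2 and 3. Myo9a (chromosome 9, 59750896 to 59928866, plus strand), a motor that also switches off small GTPases, was at 15.7, 14.9 and 16.1 CPM at CT1 and 22.9, 17.3 and 18.7 CPM at CT23. CT23 replicate 1 was the highest Myo9a library by far. Log2 folds were 0.27 for Myo18a (SE 0.0847, limma adjusted p = 0.134) and -0.30 for Myo9a (SE 0.116, adjusted p = 0.183). With crystallin reads out of the totals they were 0.086 and -0.49 (limma adjusted p = 0.749 and 0.104). The annotated 3′ end of Myo9a overlaps Gm20275 on the other strand, and as the strand setting of the authors' counting is not given, reads of such a pair cannot be told apart. Myo10, the motor of filopodia, was at 20.6, 26.6 and 18.7 CPM at CT1 and 26.4, 26.6 and 21.5 CPM at CT23, and Myo9b had a log2 fold of 0.08. Myo19, a mitochondrial motor, had 3 to 21 reads per library and was not tested.

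**Figure D3:**
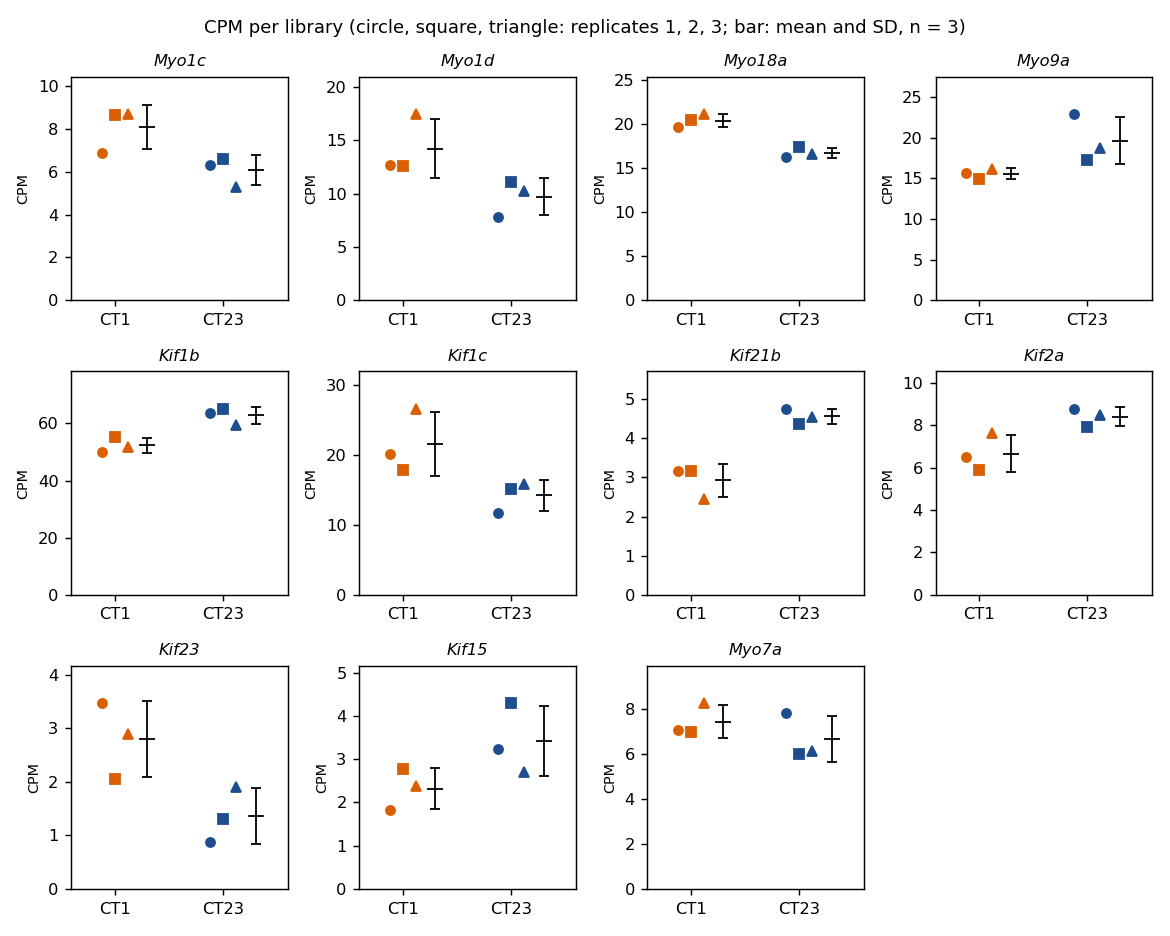
CPM in each library for 10 motor genes at an unadjusted p under 0.05 and for Myo7a, with CT1 (orange) left of CT23 (blue), a symbol per replicate, and the mean with SD (n = 3) beside them. Kif21b and Kif1b lie lower and Myo18a and Kif1c higher in all CT1 libraries, while Kif15 and Myo7a overlap between the times.

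Kinesin-1 is the main motor towards the cell periphery, built of Kif5 heavy chains and Klc light chains. Its ubiquitous heavy chain Kif5b averaged 39.4 ± 3.995 CPM at CT1 and 34.9 ± 4.04 CPM at CT23 (SD, n = 3 each), while the neuronal forms Kif5a and Kif5c had log2 folds of -0.07 and -0.23. The light chains Klc1, Klc2 and Klc4 were at -0.14, -0.15 and -0.22, and none of the 6 genes reached an unadjusted p under 0.05. The Kif5b fold of 0.17 was -0.02 with crystallin reads out of the totals. Within a library, the share of 1 gene in the reads of its family does not depend on the library total; the families were chosen after the values had been seen, and the shares are descriptions without a test. Among Kif5 reads Kif5b took 83.4%, 78.7% and 86.7% in CT1 replicates 1, 2 and 3 and 75.3%, 80.3% and 83.2% in CT23 replicates 1, 2 and 3, with the times overlapping. Kinesin-2 drives transport into cilia. Its subunit Kif3b was at 11.9, 12.8 and 12.4 CPM at CT1 and 13.3, 14.7 and 13.6 CPM at CT23, without overlap (log2 fold -0.15, SE 0.0884, limma adjusted p = 0.348), and Kif3a overlapped, with a log2 fold of -0.12.

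Kinesin-3 motors carry vesicles over long distances, and 2 close relatives had folds of opposite sign, neither past the test. Kif1b (chromosome 4, 149176319 to 149307693, minus strand), a motor of synaptic vesicle precursors and mitochondria and the second most abundant member, was at 50.01, 55.2 and 51.8 CPM in CT1 replicates 1, 2 and 3 and 63.7, 65.2 and 59.5 CPM in CT23 replicates 1, 2 and 3. Kif1c (chromosome 11, 70700548 to 70731964, plus strand), which serves the Golgi and secretory vesicles, was at 20.1, 17.8 and 26.6 CPM in CT1 replicates 1, 2 and 3 and 11.6, 15.1 and 15.8 CPM in CT23 replicates 1, 2 and 3. In the deposited CPM neither gene's times overlapped. Log2 folds were -0.26 for Kif1b (SE 0.0945, limma adjusted p = 0.175) and 0.56 for Kif1c (SE 0.167, adjusted p = 0.124). With crystallin reads out of the totals they were -0.45 for Kif1b and 0.38 for Kif1c. Of the reads of Kif1a, Kif1b and Kif1c together, Kif1c took 25.3%, 21.0% and 29.9% in CT1 replicates 1, 2 and 3 and 12.9%, 16.3% and 18.4% in CT23 replicates 1, 2 and 3. Kif1b took 63.0%, 65.1% and 58.2% at CT1 and 70.6%, 70.2% and 69.6% at CT23. Kif1a, the neuronal form, averaged 10.5 ± 1.30 CPM at CT1 and 12.6 ± 2.34 CPM at CT23. Kif16b, an endosome motor, had a log2 fold of 0.17, and Kif13a and Kif13b were at -0.08 and 0.07.

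Marker genes of other cell types stood as follows, none past an adjusted p of 0.05, which no gene passed in this fit. All 19 rod markers were lower at CT1, with the summed levels given above, none at 0 in any library. Of 10 markers of inner retinal neurons tested 8 were lower, with sums of 121 to 158 CPM at CT1 and 155 to 183 CPM at CT23. Fibroblast markers had 8 of 9 members higher at CT1, with sums of 969 to 1787 CPM at CT1 and 744 to 875 CPM at CT23, and CT1 replicate 3 held the highest fibroblast sum and the highest Kif1c level. At a limma adjusted p under 0.1 there were 13 rod, 3 inner retinal and 0 fibroblast markers, beside 4.38% of all genes. The part of these cell types in the Kif1b, Kif1c and Kif21b values was not tested.

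Kif21b (chromosome 1, 136131389 to 136177998, plus strand), a regulator of microtubule growth in neurons and immune cells, was at 3.17, 3.17 and 2.44 CPM in CT1 replicates 1, 2 and 3, against 4.76, 4.38 and 4.55 CPM in CT23 replicates 1, 2 and 3. All CT1 libraries lay below all CT23 libraries, on 33 to 65 reads each. Its log2 fold was -0.51 (SE 0.123, limma adjusted p = 0.0912). With crystallin reads out of the totals, where 72.7% of all genes were lower at CT1, Kif21b passed limma's test at 0.0486. Its adjusted p was not under 0.1 without a filter, with TMM factors or with a replicate block. Nor was it under 0.1 by edgeR, DESeq2 or limma-voom. Its paralog Kif21a averaged 26.3 ± 3.50 CPM at CT1 and 26.1 ± 3.86 CPM at CT23, with a log2 fold of 0.01 whose sign turned under several alternatives. Of their joint reads Kif21b took 10.1%, 12.5% and 7.89% in CT1 replicates 1, 2 and 3 and 17.2%, 14.9% and 13.0% in CT23 replicates 1, 2 and 3, and the 95% Wilson intervals overlapped in 6 of the 9 pairs of a CT1 and a CT23 library. Kif2a, which shortens microtubules, was at 6.50, 5.87 and 7.63 CPM at CT1 and 8.79, 7.91 and 8.51 CPM at CT23 (log2 fold -0.30, SE 0.115, adjusted p = 0.186). Its annotated 3′ end overlaps Dimt1 on the other strand. Kif26a had a log2 fold of 0.37 on overlapping libraries, which was 0.09 without CT23 replicate 1 and 0.19 without CT1 replicate 3, and Kif1bp was at 0.15. Kif24, with 4 to 15 reads per library, was not tested.

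Kinesins of cell division were scarce, and 4 of 7 (Kif11, Kif14, Kif18a and Kif22) lay below 1 CPM and were not tested. Kif23 (chromosome 9, 61915905 to 61946774, minus strand), a subunit of the complex that completes cytokinesis, was at 3.47, 2.06 and 2.89 CPM in CT1 replicates 1, 2 and 3 and 0.879, 1.31 and 1.91 CPM in CT23 replicates 1, 2 and 3. All CT1 libraries were above all CT23 libraries, though CT1 replicate 2 and CT23 replicate 3 differed little and held 26 reads each. The log2 fold was 0.69 (SE 0.202, limma adjusted p = 0.121). Kif15 (chromosome 9, 122951046 to 123018733, plus strand), a spindle motor also found in neurons, was at 1.81, 2.78 and 2.37 CPM in CT1 replicates 1, 2 and 3 and 3.22, 4.30 and 2.71 CPM in CT23 replicates 1, 2 and 3, with overlap and a log2 fold of -0.41 (SE 0.174, adjusted p = 0.223). These genes are no family and were paired because their folds had opposite signs. Of the reads of both genes Kif23 took 65.7%, 42.6% and 54.9% at CT1 and 21.4%, 23.3% and 41.3% at CT23. Kif20b had a log2 fold of 0.17. Proliferation markers had 5 of 5 tested members higher at CT1, with sums of 33.1, 19.4 and 24.1 CPM in CT1 replicates 1, 2 and 3 and 9.01, 13.4 and 20.6 CPM in CT23 replicates 1, 2 and 3. Markers of the surface epithelium of the eye summed to 1984, 1194 and 1821 CPM at CT1 and 619, 1041 and 1508 CPM at CT23, none at 0 throughout. Both sums put CT23 replicate 3 above CT1 replicate 2, and their part in the Kif23 value was not tested.

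**Figure D4:**
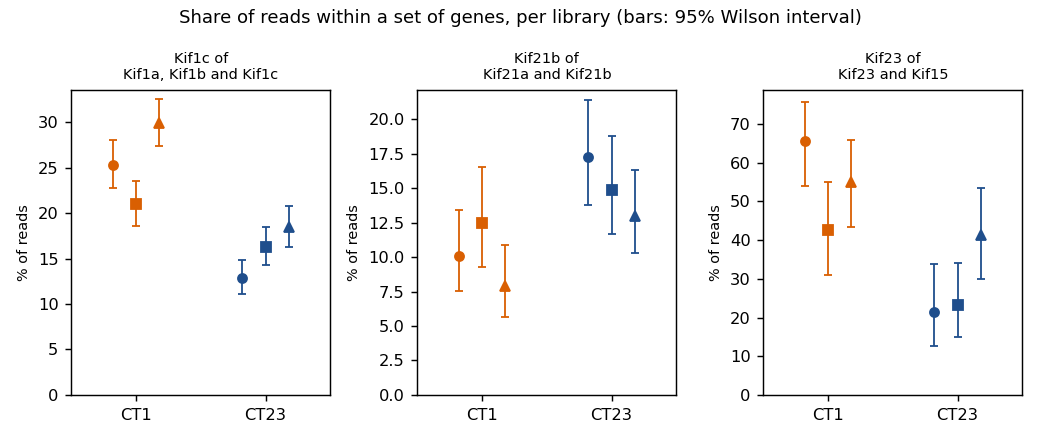
Percentage of the reads of a set of related genes, or of the chosen pair Kif23 and Kif15, that belong to 1 of them, in each library, with 95% Wilson intervals that cover counting error only, for Kif1c, Kif21b and Kif23, with CT1 left of CT23. The Kif1c share is at least 21.0% at CT1 and at most 18.4% at CT23, and the intervals of some CT1 and CT23 libraries overlap in each of the 3 panels.

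Cytoplasmic dynein and dynactin had the smallest folds of the 3 classes of motor, with a median size of 0.15. None of their 17 genes had an unadjusted p under 0.05 in the main limma fit, and the largest log2 fold was -0.26, for Dync1i1. With crystallin reads out of the totals the Dync1i1 fold was -0.41, and Dync1i1, Dync1i2 and Dctn6 had an unadjusted p under 0.05. In that setting 2687 of 11342 genes did, and 72.7% of all genes were lower at CT1. By limma-voom Dynlt3 was under 0.05, as were 2492 genes in all. The heavy chain Dync1h1, the motor subunit itself, averaged 17.8 ± 1.54 CPM at CT1 and 18.4 ± 3.73 CPM at CT23 (SD, n = 3 each). Its intermediate chains bind cargo adaptors. Dync1i2, the ubiquitous form, was at 22.3, 22.0 and 24.7 CPM at CT1 and 25.1, 26.9 and 26.6 CPM at CT23, without overlap (log2 fold -0.18, SE 0.0897, limma adjusted p = 0.279), and the neuronal form Dync1i1 was at 1.74, 2.46 and 1.78 CPM at CT1 and 2.56, 2.996 and 2.20 CPM at CT23, with overlap. Light intermediate chain Dync1li1 had a log2 fold of -0.19. Dync2h1, the motor that returns cargo from the tip of cilia, averaged 7.75 ± 0.896 CPM at CT1 and 7.77 ± 0.596 CPM at CT23, and its partner Dync2li1 had a log2 fold of -0.23.

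Dynein light chains held the most abundant member of the set, Dynll2, at 60.3 ± 4.19 CPM at CT1 and 58.6 ± 3.35 CPM at CT23, a hub protein that also serves myosin V. Dynlt3 was at 33.2, 34.7 and 32.1 CPM at CT1 and 30.1, 29.7 and 28.7 CPM at CT23, without overlap, with a log2 fold of 0.17 (SE 0.0849, limma adjusted p = 0.281) that was -0.02 with crystallin reads out of the totals. Dynlrb1 had a log2 fold of 0.21 and Dynll1 one of 0.08; how reads shared with near-identical copies of Dynll1 were counted is not stated in the sources. In dynactin, the complex that lets dynein move far and pick up cargo, Dctn2 and Dctn6 lay apart without overlap, in opposite directions. Dctn2 averaged 11.7 ± 0.429 CPM at CT1 and 10.4 ± 0.286 CPM at CT23, and Dctn6 averaged 7.04 ± 0.534 CPM at CT1 and 8.28 ± 0.516 CPM at CT23. Their log2 folds of 0.15 and -0.21 had limma adjusted p of 0.339 and 0.273, and that of Dctn2 was -0.03 with crystallin reads out of the totals. Dctn1, the largest subunit, and Dctn4 and Dctn5 had log2 folds of 0.09, -0.06 and -0.12.

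By level the members spanned Dynll2 at 59.4 CPM over the 6 libraries to Kif18a at 0.373 CPM. Dynll2 and Kif1b (57.6 CPM) led, followed by Kif5b, Dynlt3, Kif21a, Myo6 and Dync1i2, and Kif21a, Myo6 and Dync1i2 did not differ beyond their spread.

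Genes that work with these motors were read in the same fit, from lists chosen by function, and none of them passed. Of 15 kinesin adaptors tested 13 were lower (median log2 fold -0.18), of 18 dynein and dynactin regulators 14 were lower (-0.11), and at an unadjusted p under 0.05, which 12.4% of all genes met with a lower level at CT1, there were 3 of each. Of all genes tested 52.2% were lower at CT1. With TMM factors 11 of the 15 and 14 of the 18 were lower. Hook1, which links dynein to endosomes, was at 8.54, 7.61 and 6.22 CPM in CT1 replicates 1, 2 and 3 and 11.5, 10.8 and 12.4 CPM in CT23 replicates 1, 2 and 3 (log2 fold -0.58, SE 0.125, limma adjusted p = 0.0767). Bicdl1, a dynein adaptor, had a log2 fold of -0.58, and Rhot1, which ties mitochondria to motors, and Plekhm2, which ties lysosomes to kinesin-1, were at -0.33 and -0.44. Partners of unconventional myosins had 7 of 11 lower and 4 higher (median -0.10). Sytl2, a Rab27 effector, was at 0.37 and Spire1, which seeds actin filaments for myosin V, at -0.37.

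Conventional myosin II heavy chains had 7 of 8 tested members higher at CT1 (median 0.84), and the 4 highest folds were those of the skeletal muscle forms Myh1 (1.06), Myh2 (1.15), Myh3 (1.34) and Myh4 (2.07). Of the other forms, Myh9 was at 0.35, Myh11 at 0.18 and Myh10 at -0.24. Myh14, a non-muscle form, was at 7.18, 6.34 and 8.66 CPM in CT1 replicates 1, 2 and 3 and 3.59, 4.84 and 5.06 CPM in CT23 replicates 1, 2 and 3 (log2 fold 0.61, SE 0.152, limma adjusted p = 0.0949). Skeletal muscle markers, with Myh1, Myh2, Myh4 and Mylpf among them, had 13 of 13 tested members higher, with sums of 100 to 363 CPM at CT1 and 26.4 to 90.7 CPM at CT23, none at 0 throughout, and their part in the values of the 4 muscle forms was not tested. Myosin light chains and calmodulins had 6 of 9 higher (median 0.12), with Myl9 at 0.52 and the muscle form Mylpf at 1.71; with crystallin reads out of the totals the median was -0.03. Tubulins had 5 of 9 higher (median 0.12), with Tuba1c at 0.62 and Tuba4a at 0.36, and a median of -0.06 with crystallin reads out. Of the other kinesin genes, Cenpe and Kifc2 were at 0.36 and 0.11, and of the dynein-2 intermediate and light chain genes, Tctex1d2 and Wdr34 were at -0.34 and -0.29.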

How the data were processed

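Gene expression was measured in 6 libraries, placed in groups by the circadian time their titles carry. Per the labels' protocols, the anterior eye and neural retina were removed, RPE cells were freed by sonication, and the kit reads transcript 3′ ends. The submitters' processing notes name Bowtie2 2.1.0, HTSeq, edgeR 3.24.1 and the build mm10 without saying what each did, and no filter is stated. Per the file headers the deposited table gives CPM for each library beside the authors' log2 fold and p-value. The deposited log2 fold equalled that of mean CPM at CT1 over CT23 in all 14083 entries; the authors' p-value was not used. CPM values were whole multiples of 1 read within 0.01 in 100% of values, which gave the library totals. The 75 entries without a gene name, 0.0432% to 0.102% of listed reads, were left out.

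The fit was limma 3.58.1 (R 4.3.3) on log2(CPM + 1), with a trend in the variance, on 11342 genes averaging 1 CPM or more, time as the only factor, two-sided. Folds are CT1 minus CT23 and understate low genes. Members and lists were chosen with earlier results of these data known. Named members are Myo7a and, per role, up to 4 with the smallest p and the 2 with the highest mean, with up to 2 genes per other list; other names were chosen after their values were seen. Coordinates are from GENCODE M21 (GRCm38, mm10), counted from 1. Alternatives were other pseudocounts, filters and scalings, edgeR 4.0.16, DESeq2 1.42.0 and limma-voom on the recovered reads, a replicate block and left-out libraries. Tests were tried on simulated data. No 2 libraries of a time were copies of each other, since the chi-square per gene of their counts was 5.17 to 147. With 3 libraries against 3, an exact permutation test of a single value cannot go below 0.1, and none is given. 1 member is counted but not reported here by itself. Sequences of proteins were not used here. Intervals and floors cover counting error only.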

Additional observations from a re-analysis of the deposited data

How the results depend on the processing

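No member passed by limma with pseudocounts of 0.5 or 0.1, without a filter, with TMM factors, with any library left out, by edgeR's quasi-likelihood test, DESeq2 or limma-voom. By these 3 tools 11, 5 and 12 members had an unadjusted p under 0.05, and 2464, 1343 and 2492 genes in all. DESeq2 gave 138 genes past the threshold and no adjusted p to 5937. Myo1f, Myo9b, Kif5c and Klc4 were among those 5937 and could not pass. Kif1c had a DESeq2 adjusted p under 0.1, as did 264 genes in all. Tested on genes averaging 5 CPM or more, limma gave 98 genes and 1 member. With crystallin reads out of the totals it gave 360 genes and 2 members, Kif21b among them, and a median log2 fold of the members of -0.17; DESeq2's median was 0.046. With a library left out in turn the count of all genes past the threshold ranged from 0 to 4. At an unadjusted p under 0.05 there were 7 to 11 members, beside 1793 to 2253 genes in all. The median log2 fold of the members ranged from -0.016 to 0.020 and the Myo7a fold from 0.077 to 0.25. Leaving out CT23 replicates 1 and 2 together leaves a lone CT23 library. The median log2 fold of the members was then 0.0043, that of Myo7a was 0.24 and that of Myo1c was 0.52. A replicate block gave 0 genes and 0 members past the threshold. At an unadjusted p under 0.05 it gave 11 members and 2480 genes in all. Same-numbered libraries deviated from the mean of their time with correlations of -0.255, 0.383 and -0.0418, and others with -0.704 to 0.770. Deviations from a mean of 3 depend on each other, so these values do not settle whether the numbers pair libraries.

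The 17 folds that turned sign with crystallin reads out of the totals, where 72.7% of all genes were lower at CT1, were Myo7a (-0.025), Myo5a (-0.17), Myo5b (-0.097), Myo6 (-0.17), Myo9b (-0.038), Kif5b (-0.020), Kif1bp (-0.017), Kif21a (-0.17), Dynll1 (-0.084), Dynll2 (-0.15), Dynlt3 (-0.018), Dctn1 (-0.056), Dctn2 (-0.025), Dctn3 (-0.077), Dync1li2 (-0.027), Kif13b (-0.10) and Kif26b (-0.081). The lists that follow cover only the 44 members named by the rule above. Without CT23 replicates 1 and 2 together the folds that turned were Myo6 (-0.10), Myo10 (0.016), Kif3a (0.028), Kif1a (0.028), Kif20b (-0.050), Kif21a (-0.21), Dctn1 (-0.014) and Dctn4 (0.0055). With a library left out in turn the fold ranged from -0.062 to 0.093 for Myo5a, -0.047 to 0.22 for Myo5b, -0.071 to 0.083 for Myo6, -0.065 to 0.22 for Myo9b, -0.073 to 0.125 for Kif21a, -0.19 to 0.089 for Dync1h1, -0.087 to 0.21 for Dynll1, -0.016 to 0.080 for Dynll2 and -0.012 to 0.14 for Dctn1. Members near the filter rest on few reads, which limits precision. Taking crystallin reads out changes the library totals alone, and it lowered the fold of every tested member. The folds that turned with it were positive and at most 0.17 in the main fit. The cause of the changes with left-out libraries was not tested.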

Other observations

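Among the 2 light intermediate chains of dynein-1, which join the motor to its adaptors, Dync1li1 took 46.2%, 52.8% and 51.3% of their joint reads in CT1 replicates 1, 2 and 3 and 62.4%, 56.4% and 50.9% in CT23 replicates 1, 2 and 3, with CT23 replicate 3 inside the CT1 range. Of the reads of Dync1i1 and Dync1i2 the neuronal Dync1i1 took 6.72% to 10.0% at CT1 and 7.63% to 10.0% at CT23, so the times overlapped. Dynll1 took 8.78% to 11.4% of the reads of Dynll1 and Dynll2 at CT1 and 7.32% to 10.8% at CT23. These shares were computed after the values had been seen and were not tested.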
